A study of Homo sapiens with 12 samples.

Results

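TNFSF10 (the death ligand TRAIL) and its receptors TNFRSF10A and TNFRSF10D were followed across 4 states of a prostate cancer cell model. With them were the BCL2 family genes BCL2, BCL2L1, BCL2L11 and MCL1, the chaperone gene CLU and the actin-severing gene GSN. These 9 genes were chosen by name with earlier results of these data known, and each symbol matched 1 Ensembl identifier among the 58381 genes counted. Counts of them that passed therefore stand beside the shares of all genes as description only. A filter on low counts left 19162 genes for testing, with 8 of the 9 among them. TNFRSF10D did not pass it.

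The study asked which genes follow testosterone (T), and which of these changes persist in cells adapted to a low T level. VCaP is a prostate cancer line from a bone metastasis that carries an amplified androgen receptor gene and the TMPRSS2-ERG fusion. All cells were kept in medium with charcoal-stripped serum (DCC-FBS), to which T was added. VCaP-T is a subclone established by long-term culture at 10 nM T, and VCaP-CT is a subclone line raised from VCaP-T at 0.1 nM T. Poly(A) RNA was sequenced from 3 libraries in each of 4 groups. Untreated VCaP-T (passage 84) stayed at 10 nM T, and depleted VCaP-T spent 48 h at 0.1 nM T. Untreated VCaP-CT (passage 73) stayed at 0.1 nM T, and rechallenged VCaP-CT spent 48 h at 10 nM T. Each line is 1 culture lineage, so the line, its passage and its history differ together and cannot be told apart. Between lines at the same T level, the time spent at that level differs too. The sources do not say whether the 3 replicates were separate cultures, and the p-values therefore measure the spread between these libraries, which may be technical.

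Libraries held 30.2 to 40.8 M counted fragments. Replicates correlated at 0.9933 or more (Pearson, log2 CPM across genes, which are not independent), except depleted VCaP-T replicate 2, which correlated with its sisters at 0.9653 and 0.9695. TMPRSS2, a T-induced gene, fell on depletion and rose on rechallenge (log2 fold changes -1.25 and 1.87). All 9 luminal epithelial markers were above 1 CPM in each group. PTPRC, which defines blood cells, was at 0 in 3 groups and at 0.00895 CPM in untreated VCaP-CT, and the fibroblast gene DCN did not exceed a mean of 0.0824 CPM. The summed level of 8 fibroblast and smooth muscle markers nevertheless moved with T, from 6.60 to 8.35 CPM in untreated VCaP-T to 19.7 to 22.2 after depletion, and from 25.5 to 28.7 CPM in VCaP-CT to 2.92 to 3.98 after rechallenge. LUM carried much of it, with means of 0.582, 8.51, 25.1 and 1.87 CPM in the 4 groups in the order above, and COL1A1 had 5.79, 10.8, 1.39 and 0.506. The sum of 6 endothelial markers ran from 14.9 to 16.4 CPM in untreated and 15.1 to 16.1 in depleted VCaP-T, and from 8.76 to 9.28 CPM in VCaP-CT to 13.5 to 14.3 after rechallenge. VWF carried most of it (group means of 6.57 to 14.4 CPM), while KDR was at 0 in all libraries and CDH5 did not exceed a mean of 0.142 CPM. The 7 blood cell markers summed to 0.493 to 1.13 CPM, with CD14 highest at 0.658 CPM in untreated VCaP-CT. The part of these markers in the results was not tested.

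TRAIL kills cells by binding death receptors such as TNFRSF10A (DR4) and TNFRSF10B (DR5), which recruit caspases, while decoy receptors such as TNFRSF10D bind the ligand without passing the signal on. Inside the cell, BCL2, BCL2L1 (BCL-XL) and MCL1 hold back the pore formers of the mitochondrial membrane, and BH3-only proteins such as BCL2L11 (BIM) oppose them. In prostate cancer these genes are studied because androgen withdrawal can drive luminal cells into apoptosis, and clusterin (CLU) has long been known as a gene that rises in the prostate after castration.

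On depletion of T in VCaP-T, 3 of the 8 tested genes rose (TNFSF10, CLU and GSN) and 1 fell (TNFRSF10A). The antiapoptotic genes BCL2, BCL2L1 and MCL1 and the BH3-only gene BCL2L11 did not pass. A gene passed at an adjusted p under 0.01 in the quasi-likelihood test of edgeR, adjusted by the Benjamini-Hochberg method, and was called when its log2 fold change also exceeded 1 in size and its group medians differed by more than 13 normalized counts. All 4 genes that passed were called. Over all genes tested, 9.97% passed in this comparison (6.15% higher and 3.83% lower) and 3.14% were called. The 2 groups did not overlap in 6 of the 8 genes, against 38% of all genes tested.

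On rechallenge of VCaP-CT with 10 nM T, TNFSF10, CLU and GSN fell and BCL2L1 rose, so that 4 of 8 passed, against 14.3% of all genes (7.07% higher and 7.19% lower). Of these, CLU and GSN were called, against 5.14% of all genes. Without rechallenged VCaP-CT replicate 2 neither was called, at log2 fold changes of -0.93 and -0.93. In the full set the groups did not overlap in 7 of 8, against 55.7%. Depletion and rechallenge share no library. Without untreated VCaP-CT replicate 2 the number that passed was 2, as BCL2L1 and GSN then missed the threshold.

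**Figure D1:**
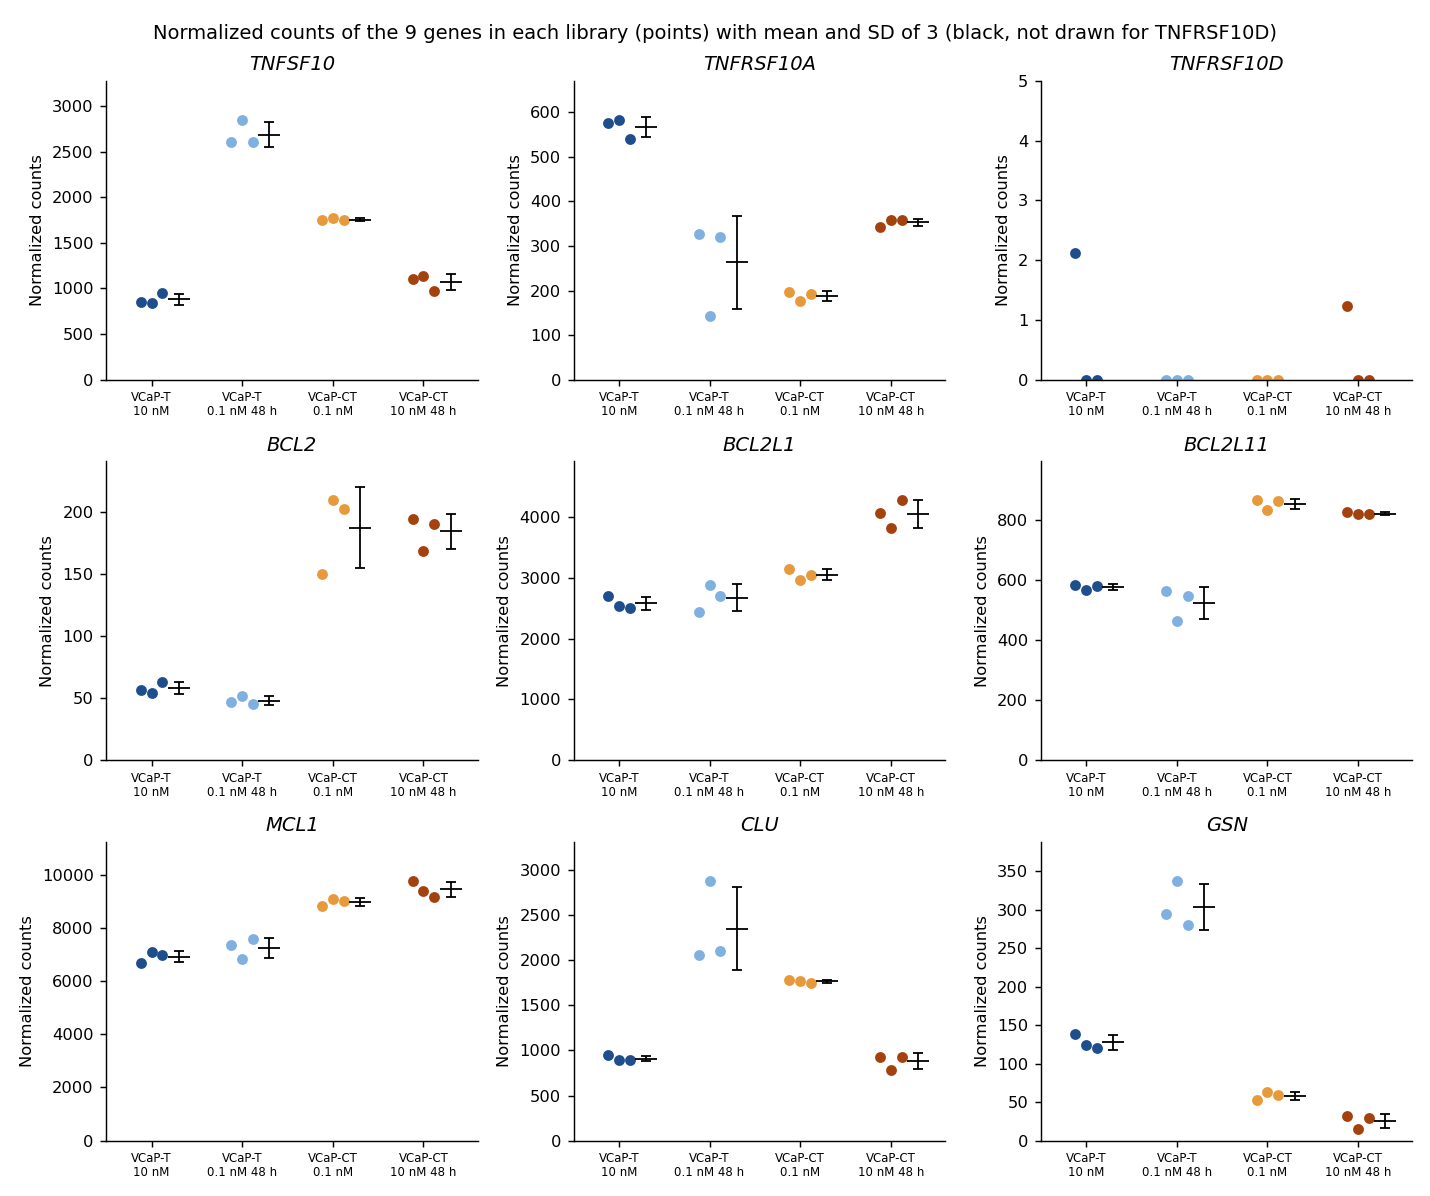
Normalized counts (vertical axes, each from 0) of the 9 genes in the 4 groups (horizontal axes), with 1 point per library and the mean and SD of 3 libraries beside them. Mean and SD are not drawn for TNFRSF10D. TNFSF10, CLU and GSN were higher at the low than at the high T level in either line, whereas BCL2 and BCL2L11 were higher in VCaP-CT than in VCaP-T at either T level.

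TNFSF10, encoded at chr3:172505508-172523507 of GRCh38 on the minus strand (ENSG00000121858.10), was the ligand and the gene with the largest depletion response among the 8. Its normalized counts were 855, 838 and 946 in untreated VCaP-T. They were 2605, 2846 and 2604 after 48 h at 0.1 nM T. No depleted library came near the untreated level, and the rise was 3.05-fold (log2 fold change 1.61, SE 0.08, edgeR quasi-likelihood test, Benjamini-Hochberg adjusted p = 3.03e-07). In bulk RNA, fewer cells of a type and less RNA per cell cannot be told apart, here and in what follows.

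In VCaP-CT the same gene had 1747, 1768 and 1749 normalized counts at 0.1 nM T. After rechallenge it had 1100, 1137 and 973. The fall of 1.64-fold (log2 fold change -0.71, SE 0.08, edgeR adjusted p = 6.42e-05) did not reach the fold needed for a call. The change on depletion of VCaP-T exceeded that on rechallenge of VCaP-CT, with an interaction of -0.90 on the log2 scale (SE 0.12, edgeR adjusted p = 0.00171). TNFSF10 was the only one of the 8 genes to pass the test of this difference, against 0.965% of all genes tested (0.804% in its direction). That adjusted p became 0.0108 without untreated VCaP-T replicate 2 and 0.0104 without untreated VCaP-CT replicate 1. T was withdrawn from VCaP-T but added to VCaP-CT. In every interaction given here, line and direction of the T change therefore cannot be told apart.

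The 4 groups of TNFSF10 therefore ran, from low to high, untreated VCaP-T, rechallenged VCaP-CT, untreated VCaP-CT and depleted VCaP-T. The lowest neighbours did not overlap, but their difference of 0.28 on the log2 scale missed the threshold (95% interval 0.12 to 0.44, edgeR adjusted p = 0.0178). It passed in DESeq2 (adjusted p = 0.00696), in the model of the 6 compared libraries (edgeR adjusted p = 0.00901), and without depleted VCaP-T replicate 2 (6.87e-04) or rechallenged VCaP-CT replicate 3 (0.00908). At 0.1 nM T, VCaP-CT was lower than depleted VCaP-T by 1.53-fold (log2 fold change -0.61, edgeR adjusted p = 8.04e-05). Among 13737 genes ranked, the patterns closest to TNFSF10 over the 12 libraries were those of STON1, BLNK and RASGEF1B, with root mean square differences of 0.12, 0.18 and 0.20 in centred log2 CPM.

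The start region of TNFSF10 is shown because this gene had the largest log2 fold change of the 8 on depletion. The window runs from 250 bases before to 50 bases after the RefSeq start (GRCh38.p14, chr3:172523381-172523680, minus strand), and capitals mark a TATAAA letter match 31 to 26 bases before that start.
TNFSF10: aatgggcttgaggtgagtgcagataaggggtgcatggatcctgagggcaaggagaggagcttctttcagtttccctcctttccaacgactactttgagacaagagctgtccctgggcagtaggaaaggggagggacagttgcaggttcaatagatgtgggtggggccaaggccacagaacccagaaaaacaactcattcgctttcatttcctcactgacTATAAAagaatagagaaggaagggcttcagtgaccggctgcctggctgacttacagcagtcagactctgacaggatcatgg
TATAAA or its complement was found in 11.53% of 35116 RefSeq windows of the same length. The letters AGAACA, the half-site of an androgen response element, were not in this window on either strand, and 14.79% of all windows held them. The GC content of the window was 51.0%, against a median of 58.7% over all windows.

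TNFRSF10A, the death receptor DR4 (ENSG00000104689.9, chr8:23190452-23225126, minus strand), moved opposite to its ligand. It had 576, 583 and 541 normalized counts in untreated VCaP-T. After depletion the libraries held 327, 143 and 321. All 3 were below the untreated libraries, with replicate 2 far below the other 2, and the log2 fold change was -1.09 (SE 0.22, edgeR adjusted p = 0.0049).

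This call rested on the shared estimate of spread and on single libraries. Without depleted replicate 2 the log2 fold change was -0.81, which is under the fold needed for a call, while the edgeR adjusted p was 2.03e-07. It was 0.0691 in a model of the 6 compared libraries alone, and 0.0163 to 0.0215 without any 1 of the untreated VCaP-T libraries.

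In VCaP-CT, TNFRSF10A held 197, 176 and 193 normalized counts at 0.1 nM T. It held 343, 358 and 357 after rechallenge, with no overlap. The log2 fold change of 0.90 missed the threshold when all 12 libraries shared 1 spread (95% interval 0.46 to 1.35, edgeR adjusted p = 0.0124). It passed in the model of the 6 compared libraries (edgeR adjusted p = 3.47e-07), without depleted VCaP-T replicate 2 (2.15e-08) and in DESeq2 (adjusted p = 0.00106). The response to T did not differ detectably between the lines, with an interaction of 0.19 (95% interval -0.43 to 0.81, edgeR adjusted p = 0.785).

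At a matched T level the difference between lines missed the threshold for TNFRSF10A when all 12 libraries shared 1 spread. VCaP-CT minus VCaP-T was -0.49 at 0.1 nM T, with overlapping libraries (95% interval -0.94 to -0.04, edgeR adjusted p = 0.103), and -0.68 at 10 nM T, without overlap (95% interval -1.11 to -0.25, adjusted p = 0.0282). Without depleted VCaP-T replicate 2 both passed, at -0.78 and -0.68 (edgeR adjusted p = 3.17e-07 and 1.16e-07). The difference at 10 nM T also passed in the model of the 6 compared libraries (edgeR adjusted p = 5.27e-06) and with no filter on low counts (0.00609). The genes that share the receptor's pattern most closely were ADAM9, PFKFB2 and ABCC4 (root mean square differences of 0.18, 0.22 and 0.22). Of the exon bases of TNFRSF10A, 16.6% overlap genes of the other strand, TNFRSF10A-AS1 and TNFRSF10A-DT, and counting ignored strand, so fragments within the shared bases were left out.

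TNFRSF10D, a decoy receptor (ENSG00000173530.5, chr8:23135588-23164030, minus strand), was at the floor of detection. It had 2 counts in untreated VCaP-T replicate 1, 1 count in rechallenged VCaP-CT replicate 1 and 0 in the other 10 libraries. A count of 0 allows up to 3 counts, which is 0.0735 to 0.0994 CPM at these depths, counting error only. No difference between groups was detectable at this depth. The other decoy, TNFRSF10C, was also under the filter, with group means of 0.631 to 3.87 normalized counts.

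Per kilobase of exon, the death receptors TNFRSF10A and TNFRSF10B stood at 5.45 and 5.81 CPM per kb in untreated VCaP-T. Their order was not settled, because shared bases could hold no counted fragment. These are 16.6% of the exon bases of TNFRSF10A, 1.30% of those of TNFRSF10B and 39.3% of those of TNFRSF10C. Divided by unshared bases alone, a scale added after the data were seen, TNFRSF10A stood at 6.53 and TNFRSF10B at 5.88 CPM per kb. TNFRSF10B did not pass on depletion (log2 fold change -0.23, edgeR adjusted p = 0.19) or on rechallenge (0.01, adjusted p = 0.947). After depletion the levels were 2.54 and 4.95 CPM per kb (3.04 and 5.02 over unshared bases), and the 4 TRAIL receptors together went from 11.3 to 7.52 CPM per kb, with 5.25 in depleted replicate 2. In VCaP-CT the sum was 5.76 CPM per kb at 0.1 nM T and 7.39 after rechallenge. Decoys made up 0.569% ± 0.0722 (SD, n = 3) of the receptor sum in untreated VCaP-T and 0.168% ± 0.290 in untreated VCaP-CT, and these overlapped (exact permutation test, two-sided, p = 0.2, adjusted p = 0.343 over 12 share tests). An exact test of 3 libraries against 3 cannot go below p = 0.1. These decoy shares rest on few counts, with TNFRSF10C means of 3.87 and 0.631 normalized counts in the 2 groups. The share was 0 in untreated VCaP-CT replicates 1 and 3.

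**Figure D2:**
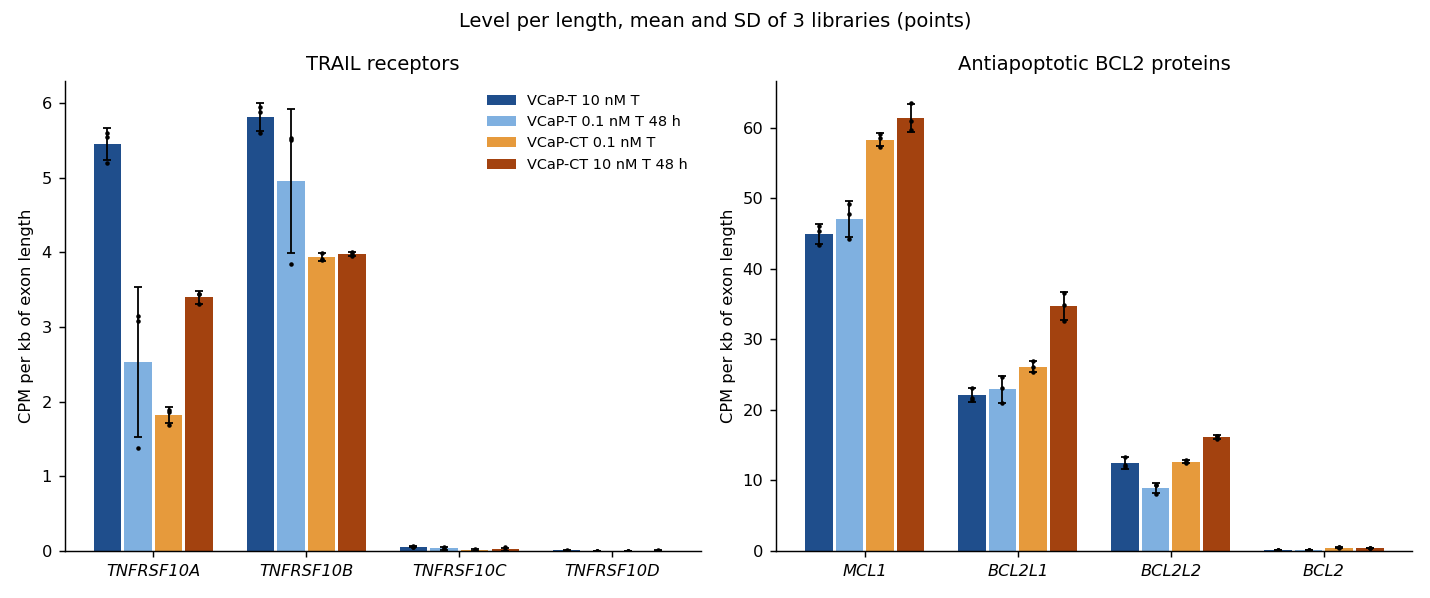
CPM per kb of exon length (vertical axes, from 0) of the 4 TRAIL receptors and of 4 antiapoptotic BCL2 family genes (horizontal axes), as mean and SD of the 3 libraries (points) in each group (colours). Levels are over all exon bases, shared ones included. The death receptors were far above the decoys, and MCL1 and BCL2L1 were far above BCL2 in every group.

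BCL2, the founding antiapoptotic member (ENSG00000171791.12, chr18:63123346-63320128, minus strand), differed between the lines and passed in neither comparison of T levels. It had 56.3, 54.2 and 63.1 normalized counts in untreated VCaP-T, and 46.7, 51.9 and 45.4 after depletion. VCaP-CT had 150, 209 and 202 at 0.1 nM T and 194, 168 and 190 after rechallenge. Every VCaP-CT library was above every VCaP-T library.

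At 0.1 nM T the log2 fold change of BCL2 between lines was 1.96 (SE 0.16, edgeR adjusted p = 1.29e-06), and at 10 nM T it was 1.67 (SE 0.15, edgeR adjusted p = 5.19e-06). Responses to T were -0.27 on depletion (95% interval -0.61 to 0.06, edgeR adjusted p = 0.267) and -0.02 on rechallenge (95% interval -0.30 to 0.26, adjusted p = 0.936). The direction on rechallenge was not settled, since it turned when single VCaP-CT libraries were left out. The closest patterns were those of FSTL1, FKBP4 and OTULINL (root mean square differences of 0.19, 0.20 and 0.21).

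The start region of BCL2 is shown as that of a gene that differed between the lines at both T levels. It holds none of the motifs searched on either strand: the half-site AGAACA, the forkhead site GTAAACA, the GC box GGGCGG or the TATA box TATAAA, which says only that these letters are not in this window (RefSeq GRCh38.p14, chr18:63319720-63320019, minus strand).
BCL2: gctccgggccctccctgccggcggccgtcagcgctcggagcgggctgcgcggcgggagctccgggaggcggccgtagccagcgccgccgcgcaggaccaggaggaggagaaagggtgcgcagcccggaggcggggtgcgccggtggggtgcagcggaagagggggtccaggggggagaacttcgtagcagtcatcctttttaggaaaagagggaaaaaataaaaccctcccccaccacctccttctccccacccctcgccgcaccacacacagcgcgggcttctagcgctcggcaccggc

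BCL2L1 (ENSG00000171552.12, chr20:31664452-31723989, minus strand) rose on rechallenge. VCaP-CT had 3149, 2962 and 3041 normalized counts at 0.1 nM T, and 4065, 3813 and 4273 after rechallenge. The groups did not overlap, with a log2 fold change of 0.41 (SE 0.08, edgeR adjusted p = 0.00264), or 1.33-fold. The adjusted p moved to between 0.0111 and 0.018 when any of 5 of the 6 libraries of this comparison was left out, with log2 fold changes of 0.37 to 0.43.

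In VCaP-T, BCL2L1 had 2705, 2536 and 2503 normalized counts at 10 nM T and 2445, 2881 and 2698 after depletion, and these overlapped (log2 fold change 0.05, 95% interval -0.10 to 0.21, edgeR adjusted p = 0.675). The interaction of -0.46 missed the threshold (edgeR adjusted p = 0.0536). It passed in DESeq2 (adjusted p = 0.00474) and without depleted VCaP-T replicate 2 (edgeR adjusted p = 0.00167). At 10 nM T the gene was 1.57-fold higher in VCaP-CT (log2 fold change 0.65, edgeR adjusted p = 5.13e-05). Its exons share 43.0% of their bases with the antisense gene ABALON, and fragments there were left out of its counts.

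MCL1, a short-lived antiapoptotic protein (ENSG00000143384.12, chr1:150574551-150579738, minus strand), passed in neither comparison of T levels and was higher in VCaP-CT. It had 6686 to 7101 normalized counts in untreated VCaP-T and 6822 to 7583 after depletion. In VCaP-CT the ranges were 8822 to 9105 at 0.1 nM T and 9183 to 9773 after rechallenge. The T responses were small (0.07 on depletion, 95% interval -0.07 to 0.20, and 0.07 on rechallenge, 95% interval -0.06 to 0.21).

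VCaP-CT exceeded VCaP-T in MCL1 by 1.37-fold at 10 nM T (log2 fold change 0.45, SE 0.07, edgeR adjusted p = 2.69e-04). At 0.1 nM T the difference was 0.31 (SE 0.07, edgeR adjusted p = 0.00312), which missed the threshold in the model of the 6 compared libraries (adjusted p = 0.0361) and without any 1 of the untreated VCaP-CT libraries (0.0106 to 0.016).

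Per kilobase, MCL1 stood at 45.0, 47.1, 58.3 and 61.4 CPM in the 4 groups and BCL2 at 0.140, 0.116, 0.451 and 0.444. The summed level of the antiapoptotic genes was that of MCL1, BCL2L1, BCL2L2, BCL2, BCL2A1 and BCL2L10. BCL2A1 and BCL2L10 were under the filter on low counts. BCL2 made up 0.175% of this sum in untreated VCaP-T and 0.462% in untreated VCaP-CT. Not divided by length, these shares were 0.507% and 1.33%. The sum was 79.7 and 79.1 CPM per kb in VCaP-T before and after depletion, and 97.6 and 112.7 in VCaP-CT before and after rechallenge. MCL1 made up 59.8% ± 0.826 (SD, n = 3) of it in untreated VCaP-CT and 54.5% ± 1.29 after rechallenge, without overlap (exact permutation test, two-sided, p = 0.1, adjusted p = 0.24 over 12 share tests). BCL2L1 made up 26.8% ± 0.901 and 30.8% ± 1.54 (p = 0.1 by the same exact test, adjusted p = 0.24). These shares depend on the length used, since 43.0% of the exon bases of BCL2L1 and 24.3% of those of BCL2L2 are shared with other genes, against 0.0458% for MCL1. Over unshared bases the MCL1 share was 48.1% in untreated VCaP-CT and 42.6% after rechallenge, and that of BCL2L1 was 37.7% and 42.2%. On that scale MCL1 and BCL2L1 stood side by side after rechallenge, at 61.4 ± 1.94 and 60.8 ± 3.46 CPM per kb (SD, n = 3). The direction of the share differences was the same on all 3 scales.

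BCL2L11, the BH3-only activator BIM (ENSG00000153094.22, chr2:111119378-111168447, plus strand), passed in neither comparison of T levels and was higher in VCaP-CT. VCaP-T had 582, 565 and 580 normalized counts at 10 nM T and 563, 462 and 545 after depletion. VCaP-CT had 863, 833 and 861 at 0.1 nM T, and 824, 818 and 817 after rechallenge. All VCaP-CT libraries were above all VCaP-T libraries.

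The line difference of BCL2L11 was 0.70 on the log2 scale at 0.1 nM T (SE 0.08, edgeR adjusted p = 3.30e-05) and 0.51 at 10 nM T (SE 0.08, edgeR adjusted p = 4.55e-04). On depletion the value was -0.14 (95% interval -0.30 to 0.03) and on rechallenge -0.06 (95% interval -0.22 to 0.11), and neither passed. Of its exon bases, 10.9% overlap MIR4435-2HG on the other strand.

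BCL2L11 is known as a target of forkhead factors, so its start region is shown for a forkhead letter match (RefSeq GRCh38.p14, chr2:111120664-111120963, plus strand). Capitals mark GTAAACA, 223 to 217 bases before the start, and 3 GC boxes of the letters GGGCGG.
BCL2L11: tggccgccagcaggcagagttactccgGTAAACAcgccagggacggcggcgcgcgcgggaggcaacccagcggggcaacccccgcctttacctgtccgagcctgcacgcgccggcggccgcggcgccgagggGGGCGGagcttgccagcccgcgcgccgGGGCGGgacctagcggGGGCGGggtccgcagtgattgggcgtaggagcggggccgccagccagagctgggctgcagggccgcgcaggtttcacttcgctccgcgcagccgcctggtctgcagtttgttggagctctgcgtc
GTAAACA was found on either strand in 3.42% of all 35116 windows and GGGCGG in 44.95%. A match is a run of letters and was not tested as a binding site. Of the 9 genes, GSN and BCL2L1 also had windows in the RefSeq table, each with several starts, and MCL1, TNFRSF10A, TNFRSF10D and CLU were not matched. A GSN window (chr9:121286299-121286598) also held a forkhead match, TGTTTAC, 106 to 100 bases before its start. TATAAA and GGGCGG, or their complements, were in windows of both GSN and BCL2L1.

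CLU, an extracellular chaperone (ENSG00000120885.21, chr8:27596917-27615031, minus strand), followed T in both lines. It had 946, 895 and 889 normalized counts in untreated VCaP-T. Depletion brought it to 2064, 2881 and 2106. Depleted replicate 2 was the highest, all 3 were above the untreated libraries, and the log2 fold change was 1.37 (SE 0.12, edgeR adjusted p = 1.73e-05). Without depleted replicate 2 the fold change stayed past the threshold for a call, as it did without any other single library (range 1.19 to 1.46).

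In VCaP-CT, CLU had 1782, 1774 and 1750 normalized counts at 0.1 nM T. Rechallenge left 932, 782 and 929, no library overlapping (log2 fold change -1.01, SE 0.12, edgeR adjusted p = 9.67e-05). This value was barely past the fold for a call, and ran from -1.05 to -0.93 with single libraries left out. It was under that fold without rechallenged replicate 2, in DESeq2 and with RLE scaling. At a matched T level the lines did not pass the test: VCaP-CT minus VCaP-T was -0.41 at 0.1 nM T (95% interval -0.65 to -0.17, edgeR adjusted p = 0.0161) and -0.05 at 10 nM T (95% interval -0.29 to 0.19, adjusted p = 0.796). The first passed without depleted VCaP-T replicate 1 (edgeR adjusted p = 0.00728) or replicate 2 (0.00406). The interaction was -0.36 (95% interval -0.70 to -0.03, edgeR adjusted p = 0.327). PKIB, RGS10 and ZNF284 had the closest patterns (root mean square differences of 0.11, 0.16 and 0.18).

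GSN, the actin-severing protein gelsolin (ENSG00000148180.19, chr9:121207794-121332843, plus strand), combined a T response with a line difference. VCaP-T had 138, 124 and 121 normalized counts at 10 nM T and 294, 337 and 279 after depletion. VCaP-CT had 52.2, 62.5 and 59.1 at 0.1 nM T and 32.0, 14.5 and 28.8 after rechallenge. No pair of the 4 groups overlapped, and the order from high to low was depleted VCaP-T, untreated VCaP-T, untreated VCaP-CT and rechallenged VCaP-CT.

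Depletion raised GSN by 1.25 on the log2 scale (SE 0.17, edgeR adjusted p = 4.55e-04), and rechallenge changed it by -1.21 (SE 0.23, edgeR adjusted p = 0.00218). On rechallenge the adjusted p was 0.011 without untreated VCaP-CT replicate 2, and the log2 fold change was -0.93 without rechallenged replicate 2. The interaction was -0.04 (95% interval -0.66 to 0.59), so this design left room for a difference of either sign. With both lines at 0.1 nM T, GSN was 5.23-fold lower in VCaP-CT (log2 fold change -2.39, SE 0.19, edgeR adjusted p = 1.01e-06) and, at 10 nM T, 5.11-fold lower (-2.35, SE 0.22, adjusted p = 4.94e-06). TMPRSS13, DLX3 and NMNAT3 had the closest patterns (root mean square differences of 0.23, 0.26 and 0.27).

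**Figure D3:**
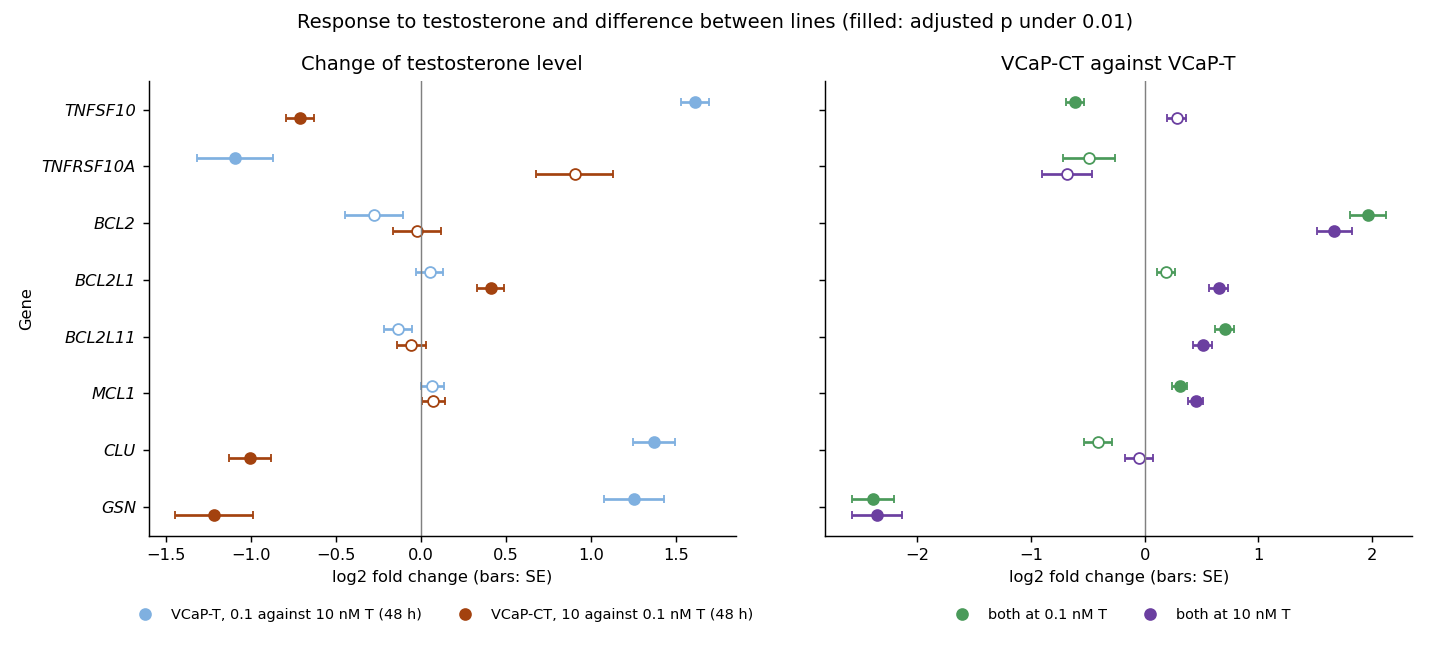
Log2 fold changes (horizontal axes) with SE of the 8 tested genes (vertical axis), for the 2 changes of T level (left) and for VCaP-CT against VCaP-T at each T level (right). Filled points passed an adjusted p under 0.01. TNFSF10, CLU and GSN lie on opposite sides of 0 for depletion and rechallenge, and BCL2, BCL2L11 and MCL1 lie near 0 on the left and above 0 on the right.

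Between the lines at a matched T level, the genes split in another way. The level was matched but the time at it was not. VCaP-CT was kept at 0.1 nM T and VCaP-T spent 48 h there, and at 10 nM T it was the reverse. Line and time at the level cannot be told apart. At 0.1 nM T, BCL2, BCL2L11 and MCL1 were higher in VCaP-CT and TNFSF10 and GSN lower, 5 of 8 against 29.5% of all genes tested (13% higher and 16.4% lower). Without depleted VCaP-T replicate 2 all 8 passed. The share of 29.5% is from the full set and does not match that fit. With single libraries left out in turn, 4178 to 9348 of all genes passed at 0.1 nM T. At 10 nM T, BCL2, BCL2L1, BCL2L11 and MCL1 were higher and GSN lower, 5 of 8 against 25.2% (12% higher and 13.2% lower). BCL2 and GSN were the 2 genes called at each level, against 12.3% and 10.2% of all genes. Groups did not overlap in 7 of 8 genes at 0.1 nM T and in 7 of 8 at 10 nM T, against 52.3% and 61.7%. These comparisons share libraries with those of T, so their values stand side by side and are not independent.

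Each line at its own T level gives the comparison in which line and T differ together. Untreated VCaP-CT against untreated VCaP-T had 7 of 8 genes past the threshold (30.6% of all genes, 14.8% higher and 15.7% lower) and 3 called (12.7%). TNFSF10, BCL2, BCL2L11, MCL1 and CLU were higher in VCaP-CT, TNFRSF10A and GSN were lower, and all 8 genes were free of overlap (69% of all genes). TNFRSF10A had the log2 fold change of -1.59 (SE 0.23, edgeR adjusted p = 1.32e-04), a 3.00-fold difference, BCL2 had 1.69 and GSN -1.14. TNFSF10 had 1.00, just under the fold for a call, and CLU had 0.96. TNFSF10 was called with no filter on low counts, and without untreated VCaP-T replicate 3 or untreated VCaP-CT replicate 1. BCL2L1, with 0.24, did not pass (edgeR adjusted p = 0.0272), but did so without depleted VCaP-T replicate 2 (5.36e-04).

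The wider apoptosis pathway was described by 60 further genes in 11 lists, also chosen with earlier results of these data known. Of these genes, 47 passed the filter on low counts. TNF, FASLG and LTA, the other classical death ligands, were among the 13 that did not. On depletion 9 of the 47 rose and 1 fell (9.97% of all genes passed), with a median log2 fold change of 0.15 against 0.04 over all genes tested. On rechallenge 3 rose and 7 fell (14.3% of all genes passed), with a median of 0.11 against -0.02. These counts were 21 and 25 without depleted VCaP-T replicate 2, with 49 pathway genes tested. The count on rechallenge was 3 to 6 without any 1 of 8 other libraries. Numbers over all genes moved too. With 1 library left out they were 906 to 5320 on depletion and 1674 to 7184 on rechallenge. On rechallenge TNFSF15, BBC3 and SCIN passed whichever library was left out, whereas TNFRSF21, BCL2L2, BOK, BMF, BCL2L14, AIFM1 and SVIL missed the threshold in some of these fits (edgeR adjusted p of 0.0102 to 0.0362). On depletion BCL2L14 and CASP9 did so, and in a model of the 6 compared libraries alone TNFSF15 and BIRC3 were the 2 genes that passed.

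Among ligands and receptors, TNFSF15, a TNF family cytokine, had the largest change. It had 35.7 ± 8.17 normalized counts in untreated VCaP-T and 166 ± 43.5 after depletion, and 61.6 ± 8.25 and 7.06 ± 3.79 in VCaP-CT before and after rechallenge (SD, n = 3 libraries each). Its log2 fold changes were 2.22 (SE 0.26, edgeR adjusted p = 1.34e-04) and -3.11 (SE 0.37, adjusted p = 7.45e-05). TNFRSF21 (DR6), a death domain receptor, rose by 0.63 on depletion and fell by 0.43 on rechallenge on the log2 scale. Of the 6 genes of the receptor signaling complex, which include FADD and CASP8, 0 passed in either comparison, against 9.97% and 14.3% of all genes.

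Among BH3-only genes, BBC3 (PUMA), a classical p53 target, rose from 63.7 ± 12.9 to 201 ± 55.3 normalized counts on depletion (log2 fold change 1.65, SE 0.24, edgeR adjusted p = 5.44e-04). On rechallenge it fell from 94.9 ± 13.8 to 26.5 ± 7.85 (log2 fold change -1.82, SE 0.27, edgeR adjusted p = 4.45e-04). BMF, which is released from the cytoskeleton, changed by 0.90 and -0.57, so that 2 of 6 BH3-only genes of the list rose (6.15% of all genes did) and the same 2 fell (7.19% of all genes). BOK, a pore former, changed by 0.82 and -0.56, whereas BAX and BAK1 passed in neither. BCL2L2 (BCL-w), antiapoptotic, went the other way, with -0.48 on depletion and 0.36 on rechallenge.

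Downstream of the mitochondria, CASP9, the initiator caspase of the apoptosome, rose on depletion (0.50, edgeR adjusted p = 0.00233), and AIFM1, a mitochondrial flavoprotein, rose on rechallenge (0.38, adjusted p = 0.00469). BIRC3 (cIAP2), a ubiquitin ligase and a classical NF-kappaB target, rose from 82.9 ± 7.59 to 328 ± 66.3 normalized counts on depletion (log2 fold change 1.98, SE 0.16, edgeR adjusted p = 8.05e-06). In the gelsolin family, SCIN followed GSN, with 0.53 on depletion, -0.78 on rechallenge and -3.08 for VCaP-CT against VCaP-T at 0.1 nM T (edgeR adjusted p = 5.46e-11). SVIL, another relative, fell on rechallenge (-1.01). Its depletion value was 0.15 and passed, at 0.41, without depleted VCaP-T replicate 2 (edgeR adjusted p = 7.20e-05).

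BCL2L14, a BCL2 relative, was the pathway gene that passed in both comparisons with the same sign. It rose with depletion in VCaP-T, from 89.7 ± 3.91 to 172 ± 29.7 normalized counts, and it also rose with added T in VCaP-CT, from 28 ± 8.30 to 55.4 ± 1.13 (log2 fold changes 0.94 and 0.99, edgeR adjusted p = 0.0036 and 0.00631). Each adjusted p exceeded 0.01 when single libraries were left out, with highest values of 0.023 without untreated VCaP-T replicate 2 and 0.0258 without untreated VCaP-CT replicate 1.

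**Figure D4:**
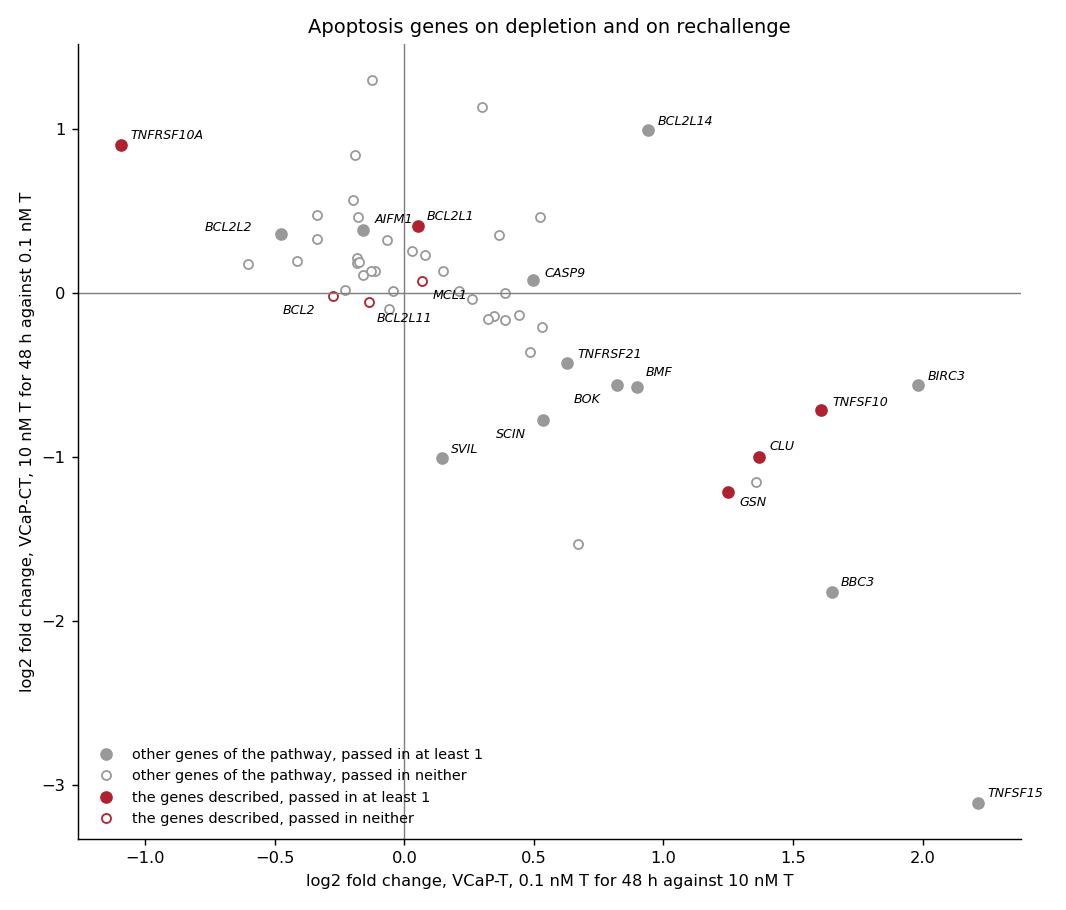
Log2 fold change on depletion in VCaP-T (horizontal axis) against that on rechallenge in VCaP-CT (vertical axis), 1 point per gene, for the 8 tested genes (red) and 47 further apoptosis genes (grey), filled where a gene passed in at least 1 comparison. TNFSF10, CLU, GSN, TNFSF15, BBC3 and BIRC3 lie at the lower right, TNFRSF10A at the upper left, and BCL2L14 at the upper right.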

How the data were processed

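Poly(A) RNA of 12 libraries (TruSeq stranded, paired ends) was aligned by the authors to GRCh38 with STAR 2.5.4b and counted over Gencode exons with featureCounts 1.6.2. The count values, as deposited, are whole fragments per gene, and per the file headers strand was ignored and fragments on several genes were left out. The authors' table of normalized values (DESeq2 1.24.0 in R 3.6.1) was not used here. Counts were tested with edgeR 4.0.16 in R 4.3.3, as a quasi-likelihood test in 1 model of the 4 groups without a replicate block, scaled by TMM, filtered for low counts by group with edgeR's defaults, and Benjamini-Hochberg adjustment over 19162 genes. Depletion is VCaP-T at 0.1 against 10 nM T, rechallenge is VCaP-CT at 10 against 0.1 nM T, and the interaction is the response to T in VCaP-T minus that in VCaP-CT. Normalized counts are CPM times the mean effective library size of 35.24 M. Intervals of 95% are normal intervals from the SE. They make no allowance for the small number of libraries, so they are narrower than the quasi-likelihood test implies. The intervals of TNFRSF10A between lines at 0.1 nM T and of the CLU interaction had both ends negative. Their unadjusted p in the edgeR quasi-likelihood test was 0.0522 and 0.0565. Shares were compared per kilobase with exact permutation tests (scipy 1.17.1).

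The 9 genes, the 60 pathway genes and the tests were chosen with earlier results of these data known. All 9 genes are named, with pathway genes that passed on depletion or rechallenge, up to 4 per list and direction, the 3 closest patterns of each called gene (centred log2 CPM, prior count 2, genes of at least 1 CPM), and T-induced checks. Start windows and their letters came from RefSeq GRCh38.p14, with 5 of the 9 genes matched. Same-numbered replicates did not deviate together: the 18 correlations of deviations ran from -0.168 to 0.055. The script was tested on simulated data. Alternatives were DESeq2 1.42.0, RLE scaling, no filter, the 6 compared libraries alone, a replicate block, shares not divided by length or divided by unshared exon bases (chosen after seeing the data), and leaving out each library. Depth covers counting error only, and depleted VCaP-T replicate 2 widened the spread that all comparisons share.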

Additional observations from a re-analysis of the deposited data

Results flagged for a closer look

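In 3 apoptosis genes the difference between the lines in response to testosterone passed the interaction test of edgeR, and in each of them it missed the threshold when certain single libraries were left out. T was withdrawn in VCaP-T and added in VCaP-CT, so line and direction of the T change cannot be told apart. For TNFSF10 the interaction (VCaP-T less VCaP-CT) was -0.8961 on the log2 scale (SE 0.12, edgeR adjusted p = 0.00171), with the same direction in both lines. For BIRC3 it was -1.4173 (SE 0.22, edgeR adjusted p = 0.00498), as depletion raised the gene by 1.98 in VCaP-T while the change of -0.57 on rechallenge missed the threshold (adjusted p = 0.0185). That change passed in DESeq2 (adjusted p = 0.0098), in the model of the 6 compared libraries (edgeR adjusted p = 2.88e-04) and without depleted VCaP-T replicate 2 (2.08e-04). For BCL2L14 it was -1.9331 (SE 0.29, edgeR adjusted p = 0.00349), with opposite directions in the lines. With each of the 12 libraries left out in turn, the interaction missed the threshold in 2 fits for TNFSF10, 10 for BIRC3 and 7 for BCL2L14, with highest edgeR adjusted p of 0.0108, 0.0231 and 0.0172. With a replicate block it missed it for BIRC3 (0.0161) and BCL2L14 (0.0147). Of all 19162 genes, 0.965% passed this test in the full set. Without depleted VCaP-T replicate 2 the number of pathway genes with a difference was 7, of 49 tested. That fit is not matched by the full-set share, since 69 to 1451 of all genes passed with 1 library left out.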

How the results depend on the processing

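RLE scaling changed no direction and no side of the adjusted p threshold of the 8 genes, took CLU on rechallenge under the fold for a call, and moved the median of all genes by at most 0.0115 on the log2 scale. The 4 groups shared 1 estimate of spread, which depleted VCaP-T replicate 2 widened: without it 5320 genes passed on depletion in place of 1911. The cause of the changes below was not tested.

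With 1 library left out, the number of the 8 genes that passed was 3 to 4 on depletion, 2 to 5 on rechallenge, 7 to 8 between the lines at their own T level, 4 to 8 at 0.1 nM T, 5 to 7 at 10 nM T and 0 to 2 for the interaction, where DESeq2 gave 2. For pathway genes the ranges were 8 to 21, 3 to 25, 11 to 32, 12 to 25, 11 to 34 and 0 to 7. The number tested was 47 in the full set and changed with the libraries, to 49 without depleted VCaP-T replicate 2. Over all genes the ranges were 906 to 5320, 1674 to 7184, 4359 to 10497, 4178 to 9348, 3438 to 9415 and 69 to 1451. In models of the 6 compared libraries alone the pathway counts were 2 of 46, 24 of 45, 30 of 45, 9 of 46 and 30 of 46. The number of all genes that passed moved in these 5 models too. With a replicate block, 6 pathway genes passed on rechallenge and 0 for the interaction, and MCL1 at 0.1 nM T between lines had an adjusted p of 0.01005, but same-numbered libraries share only a number.

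With 1 library left out, signs turned only in values that had not passed. These were BCL2L1 on depletion (-0.0077 to 0.117), BCL2 on rechallenge (-0.163 to 0.0662), CLU at 10 nM T between lines (-0.0901 to 0.0315), SVIL on depletion (-0.0293 to 0.4087), and the interactions of TNFRSF10A (-0.0976 to 0.3723), GSN (-0.3192 to 0.1681) and BBC3 (-0.013 to 0.411). The decoy share changed on depletion by -0.2235 to 0.0606 percentage points and the BCL2L1 share by -0.25 to 2.3287. Dividing by unshared bases, chosen after seeing the data, or not dividing by length changed no direction of a share difference.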

Other observations

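Some genes of the wider lists that did not pass on depletion or rechallenge differed between the lines, and these were chosen after their values were seen. TNFRSF1A, the main receptor of TNF, had 86.5 ± 11.9 normalized counts in untreated and 78.9 ± 7.90 in depleted VCaP-T, and 2.49 ± 0.560 in untreated and 6.33 ± 1.10 in rechallenged VCaP-CT (SD, n = 3). At 0.1 nM T its log2 fold change between the lines was -4.93 (SE 0.26, edgeR adjusted p = 2.60e-08). BAK1, a pore former, was higher in VCaP-CT by 0.96 at 0.1 nM T and by 0.98 at 10 nM T (edgeR adjusted p = 2.47e-06 and 2.26e-06). Of the 3 pore formers, BAX went the other way at 0.1 nM T and passed there, with a log2 fold change of -0.89. BOK was at -0.11 there and did not pass. BAX had 1512 ± 491 normalized counts in depleted VCaP-T and 815 ± 52.2 in untreated VCaP-CT. Its depleted libraries ran from 1180 to 2076, with a median of 1279. At 10 nM T, BAK1 was the only pore former that passed. Libraries of the 2 lines did not overlap in TNFRSF1A or in BAK1 at either T level.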
